A study of Homo sapiens with 6 samples.

Results

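Interferon-stimulated effector genes are the genes that a cell switches on to resist viruses once interferon has been sensed. A set of 39 such genes was read from the deposited gene tables of SW480 cells, out of 28307 gene symbols in all. The set was given as a list of names, and it was chosen with earlier results of these data known. A gene was called detected when its mean over the 6 libraries was at least 1 TPM (transcripts per 1000000 transcripts, an abundance per transcript length, scaled so that every library sums to the same total). By this rule 24 of the 39 genes were detected and 15 were not.

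SW480 is an established human colon adenocarcinoma line. All 6 libraries came from SW480 cells that had been transduced with a lentivirus and selected with antibiotic, and the construct in each was driven by the CMV promoter. The control group (Clover, n = 3) carried pLENTI CMV Clover, which encodes a fluorescent protein, and the test group (Z18trunc, n = 3) carried pLENTI CMV Z18trunc, which encodes a truncated form of the nuclear RNA surveillance factor ZC3H18. The truncated form was added to cells that keep their own ZC3H18, and the labels name no interferon treatment. The comparison asks whether cells with the truncated protein hold other levels of antiviral transcripts than the control cells.

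Type I interferons (interferon alpha and beta) bind the receptor IFNAR1/IFNAR2, whose kinases JAK1 and TYK2 phosphorylate STAT proteins such as STAT2. STAT2 and IRF9 are subunits of ISGF3, which binds interferon-stimulated response elements in promoters and turns on the effector genes. The effectors act at many steps of a viral life cycle: IFITM proteins block entry, OAS enzymes sense double-stranded RNA, IFIT proteins bind foreign RNA, MX proteins trap viral nucleocapsids, and BST2 tethers budding particles. Many of them also keep a level without added interferon that differs from one cell type to another.

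Aligned fragments numbered 18226033 to 22463310 per library. ZC3H18, the expressed construct, had a log2 change of 3.72 between the groups (Z18trunc above Clover, limma adjusted p = 3.21e-05), the direction its labels give. Of 8 colon epithelium markers 7 were detected, with KRT20 at 0 in all 6 libraries, and their summed abundance was 23322 to 24914 TPM in Clover and 22872 to 23985 TPM in Z18trunc. Of 7 leukocyte markers CD14 and CD68 were detected, PTPRC and ITGAM were at 0, and the list summed to 5.41 to 5.57 TPM in Clover and 3.91 to 5.54 TPM in Z18trunc. Of 5 fibroblast markers COL1A1 was detected and DCN was at 0 (list sums 2.03 to 2.28 TPM in Clover and 1.65 to 2.28 TPM in Z18trunc). None of 4 endothelial markers was detected, with PECAM1, CDH5 and KDR at 0 (list sums 0.403 to 0.494 TPM and 0.229 to 0.503 TPM). For EPCAM all Z18trunc values lay above all Clover values (log2 change 0.22, limma adjusted p = 0.135). For CD14 they lay below them (log2 change -0.46, limma adjusted p = 0.0807). The other detected markers overlapped between the groups.

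Part of the promoters held a common sequence motif. RefSeq promoter windows (GRCh38.p14, 250 bases before to 50 bases after the gene start) were at hand for 32 of the 39 genes. They were searched on both strands for the core of the interferon-stimulated response element, GAAA followed by any 2 bases and GAAA again. On the opposite strand this reads TTTC, any 2 bases, TTTC, and overlapping matches were each counted. The motif was in 19 of the 32 windows (59.4%) and in 996 of 27305 windows of all genes (3.65%). Among genes with at least 1 TPM it was in 262 of 10069 windows (2.6%). A match is a description of these letters and not a shown binding site, and IFIT2, IFITM2, IRF7, MX2, OAS2, OASL and USP18 have no entry.

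Stretches of 30 bases are shown for the 6 genes of at least 20 TPM with a match before the start, IFITM3, ISG15, IFITM1, BST2, IFI27 and IFI6, for OAS3 and EPSTI1 at lower abundance, and for IFIT1, HERC5, IFI44 and IFI44L, which were below 1 TPM. They are written 5′ to 3′ along the gene, with the motif in capitals.
IFITM3: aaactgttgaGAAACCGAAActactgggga
ISG15: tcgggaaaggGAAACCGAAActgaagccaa
IFITM1: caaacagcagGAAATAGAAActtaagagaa
BST2: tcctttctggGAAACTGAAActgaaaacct
IFI27: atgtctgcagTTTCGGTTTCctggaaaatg
IFI6: ggagagagggGAAAATGAAActctgcagag
OAS3: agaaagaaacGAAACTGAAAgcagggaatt
EPSTI1: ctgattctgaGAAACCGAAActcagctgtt
IFIT1: cactttccccTTTCGGTTTCcctaggtttc
HERC5: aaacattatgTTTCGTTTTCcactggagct
IFI44: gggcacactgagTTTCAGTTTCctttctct
IFI44L: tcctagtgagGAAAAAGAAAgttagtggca

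The motifs shown begin 35 bases before the start of IFITM3 (chr11:320876-320905, minus strand), 107 before ISG15 (chr1:1013380-1013409, plus strand), 40 before IFITM1 (chr11:313990-314019, plus strand) and 130 before BST2 (chr19:17405741-17405770, minus strand). They begin 108 bases before IFI27 (chr14:94110618-94110647, plus strand) and 156 before IFI6 (chr1:27672329-27672358, minus strand). For OAS3 the distance is 143 bases (chr12:112938321-112938350, plus strand) and for EPSTI1 50 bases (chr13:42992272-42992301, minus strand). Among the genes below 1 TPM it is 103 bases for IFIT1 (chr10:89392510-89392539, plus strand), 74 for HERC5 (chr4:88457035-88457064, plus strand) and 18 for IFI44 (chr1:78649759-78649788, plus strand). IFI44L holds the same 30 bases at 2 places, 164 and 73 bases before its start (chr1:78620274-78620303 and chr1:78620365-78620394, plus strand). The motif was found in 13 of the 20 detected genes with a window (65%) and in 6 of the 12 that were not detected (50%), so it was present on both sides of the detection limit.

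Abundance ran over close to 3 orders of magnitude among the detected genes, as the plot of every library shows. IFITM3 and IFITM2 led, and IFITM1 came after ISG15. The 3 IFITM genes encode small membrane proteins that hinder fusion of virus and endosome. They lie next to each other on chromosome 11 (IFITM2 chr11:308107-309410, IFITM1 chr11:314040-315272 and IFITM3 chr11:319676-320860), and together they made 81.5% to 83.7% of the summed abundance of all 39 genes. The 39 genes summed to 2994, 3298 and 3038 TPM in the Clover libraries and 2952, 2983 and 2924 TPM in the Z18trunc libraries. Without the 3 IFITM genes the sums were 532, 537 and 501 TPM in Clover and 546, 536 and 520 TPM in Z18trunc, and these overlap. IFITM sequences are close copies, so the division of reads among them is uncertain.

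**Figure D1:**
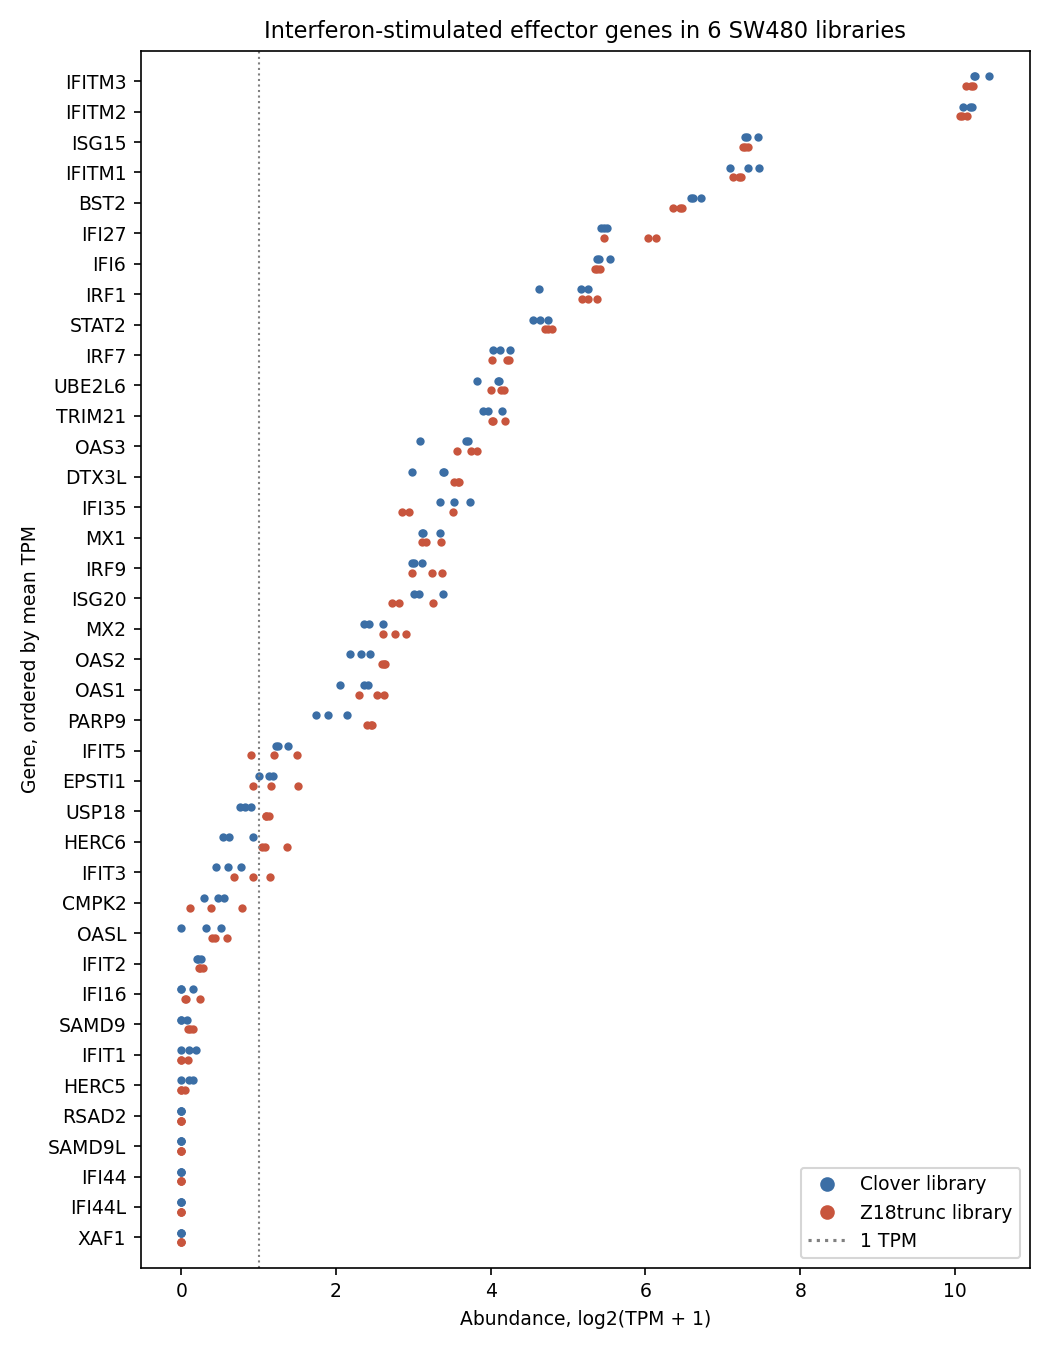
Abundance of the 39 genes as log2(TPM + 1), on the horizontal axis, in each of the 6 SW480 libraries, with 1 point per library, Clover in blue and Z18trunc in red, and a dotted line at 1 TPM. IFITM3 and IFITM2 stand at the top, above 1000 TPM in every library, and RSAD2, SAMD9L, IFI44, IFI44L and XAF1 are listed at 0 in all 6.

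Below IFITM3 and IFITM2 came ISG15, IFITM1 and BST2, then IFI27, IFI6, IRF1 and STAT2, which were all at 20 TPM or above in the mean. In all 9 genes were at this level and 15 detected genes lay between 1 and 20 TPM. EPSTI1 (1.24 TPM) and IFIT5 (1.38 TPM) were just inside the detection limit, and USP18 (0.964 TPM) and HERC6 (0.941 TPM) just outside it. Close relatives fell on both sides of the detection limit. Of the 4 IFIT genes in a row on chromosome 10, IFIT5 was detected and IFIT1, IFIT2 and IFIT3 were not. IFIT3, at 0.722 TPM in the mean, was close to IFIT5. Of the 4 OAS genes, OAS1, OAS2 and OAS3 were detected and OASL was not.

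No detected gene of the set passed the test between Z18trunc and Clover. With limma on log2(TPM + 1), adjusted by Benjamini-Hochberg over 13300 genes, 0 of the 24 were called at 0.05 in either direction, and 0 were called under every alternative tried. Among all genes tested 0.00752% were called higher and 0.00752% lower, which is 1 gene each way, so that the count of 0 is close to the background. In bulk RNA a level in fewer cells and a lower level per cell cannot be told apart. At an unadjusted p under 0.05, 5 of the 24 were higher (PARP9, OAS2, MX2, DTX3L and IFI27) and 1 was lower (BST2), against 25.6% higher and 2.9% lower of all genes tested. By the ranks of the libraries, all 3 Z18trunc values lay above all 3 Clover values for 4 of the 24 (16.7%) and below them for 2 (8.33%). The same held for 30.1% and 6.73% of all genes tested.

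The middle of the set was close to the middle of the transcriptome. The median log2 change was 0.080 over the 24 genes and 0.11 over all genes tested, and 15 of the 24 (62.5%) had a positive change against 68% of all genes. A shift of all genes depends on the scaling of the libraries. After each library was set to the same median, the median change was -0.084 for the 24 and -0.058 for all genes, with 9 of the 24 (37.5%) above 0 against 41.9% of all genes. After quantile normalization it was -0.065 and -0.0060, with 8 of the 24 (33.3%) above 0 against 48.9% of all genes.

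**Figure D2:**
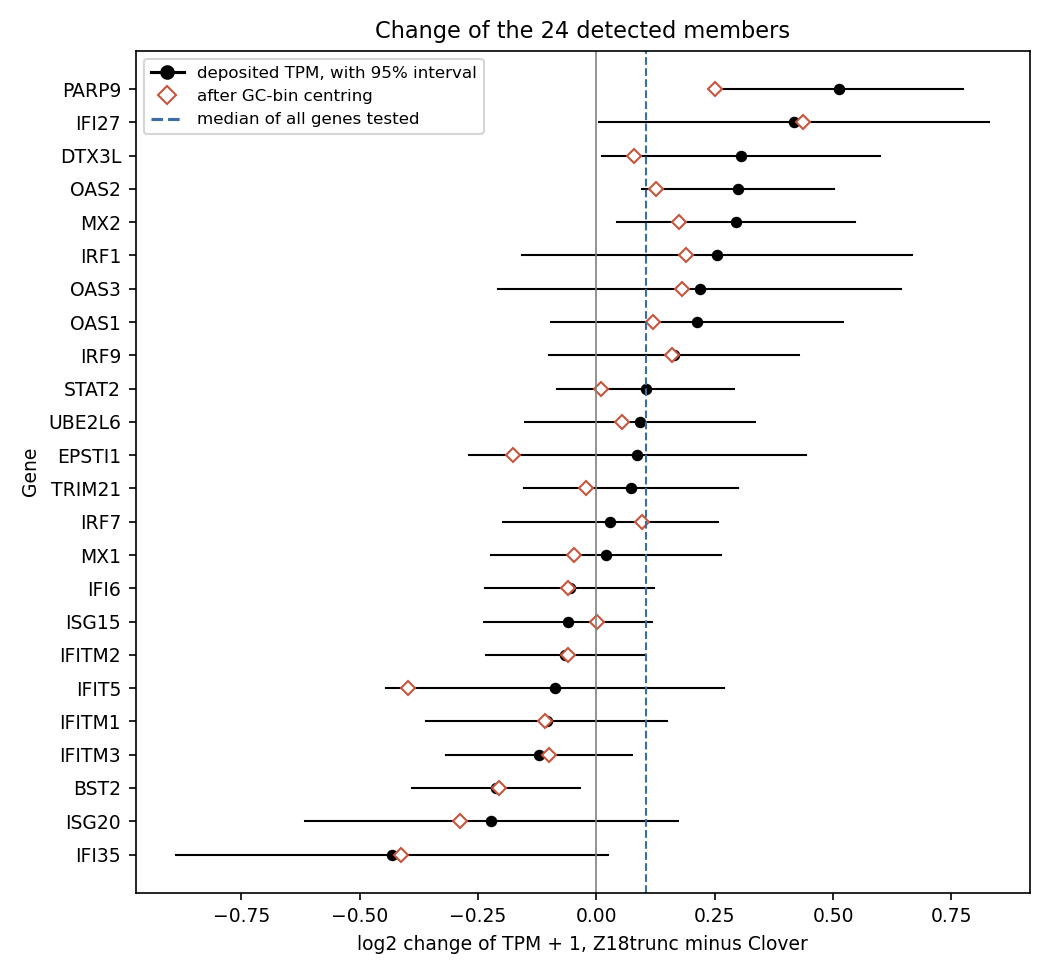
Change of each of the 24 detected genes on the log2(TPM + 1) scale, Z18trunc minus Clover (3 libraries each), with black points for the deposited TPM, bars for the 95% interval of limma, and open diamonds for values centred among genes of like GC content. The black points run from -0.43 for IFI35 to 0.51 for PARP9, the dashed line marks the median of all genes tested at 0.11, and the diamonds of PARP9, DTX3L, OAS2, MX2, EPSTI1 and IFIT5 lie well to the left of their points.

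The 4 detected members higher without overlap were PARP9, OAS2, MX2 and DTX3L, with the lowest adjusted p in PARP9 and the highest in DTX3L. PARP9, an ADP-ribosyltransferase of the macrodomain family, pairs with the ubiquitin ligase DTX3L, and the genes stand head to head on chromosome 3 (PARP9 chr3:122527924-122564784, minus strand, and DTX3L chr3:122564338-122575202, plus strand). Their spans overlap at the starts, and whether gene counting used strand is not given in the sources used here. PARP9 was at 3.40, 2.34 and 2.72 TPM in the Clover libraries and 4.26, 4.46 and 4.53 TPM in the Z18trunc libraries. Every Z18trunc value exceeded every Clover value, and limma gave a log2 change of 0.51 (SE 0.11, 95% interval 0.25 to 0.78, limma adjusted p = 0.0773). No member had a smaller adjusted p, and 560 genes of the table had one as small or smaller.

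DTX3L was at 9.52, 6.89 and 9.45 TPM in Clover and 10.9, 10.5 and 11.0 TPM in Z18trunc. The groups did not overlap, with the low Clover value in replicate 2, and the difference on the log2 scale was 0.31 (SE 0.12, limma adjusted p = 0.164). Without that replicate it was 0.17. The third gene of this role, TRIM21, a ubiquitin ligase and antibody receptor in the cytosol, went from 15.1 ± 1.48 to 15.9 ± 1.12 TPM (SD, n = 3 each), a log2 change of 0.074 within the spread of the libraries. It became -0.089 after quantile normalization and -0.091 after median centring.

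OAS enzymes make 2′-5′-linked oligoadenylate from ATP when they meet double-stranded RNA, and this activates RNase L. OAS1, OAS2 and OAS3 form a cluster on chromosome 12, and the 3 genes all had positive log2 changes. OAS2 (chr12:112978519-113011723) was at 4.44, 3.55 and 3.99 TPM in Clover and 5.02, 5.20 and 5.17 TPM in Z18trunc. The groups did not overlap and the Z18trunc values lay close together (log2 change 0.30, SE 0.08, limma adjusted p = 0.0913). OAS1 went from 3.86 ± 0.633 to 4.62 ± 0.623 TPM and OAS3 from 10.5 ± 2.58 to 12.1 ± 1.2 TPM (SD, n = 3 each). Their log2 changes were 0.21 and 0.22, and in both genes the groups overlapped. The change of OAS3 was 0.015 without Clover replicate 2, and that of OAS1 was 0.10 without Clover replicate 3. A gene listed on the opposite strand overlaps this cluster.

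MX proteins are dynamin-like GTPases. MX2 (chr21:41362027-41409392) was at 5.07, 4.38 and 4.16 TPM in Clover and 5.79, 5.11 and 6.505 TPM in Z18trunc. Every Z18trunc value was above every Clover value, by a narrow margin between Clover replicate 1 and Z18trunc replicate 2, with a log2 change of 0.30 (SE 0.11, limma adjusted p = 0.131). The groups of MX2 overlapped after quantile normalization and after median centring. MX1, its neighbour, went from 8.15 to 8.28 TPM in the mean, a log2 change of 0.020 that was -0.16 after quantile normalization and -0.14 after median centring.

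The 4 antiviral membrane proteins all had negative log2 changes with the deposited TPM, which turned positive for IFITM2 and IFITM3 when GC content and length were both centred. IFITM3 was at 1227, 1393 and 1211 TPM in Clover and 1185, 1206 and 1127 TPM in Z18trunc, without overlap but with a small gap (log2 change -0.12, SE 0.08, limma adjusted p = 0.379, and -0.057 on the log2 scale without Clover replicate 2). IFITM2 was at 1099, 1192 and 1166 TPM in Clover and 1071, 1094 and 1137 TPM in Z18trunc, and IFITM1 at 136, 176 and 160 TPM and 149.97, 147 and 140 TPM. In both genes the groups overlapped, with log2 changes of -0.065 and -0.10. BST2, or tetherin (chr19:17402939-17405630), was at 104, 97.0 and 94.9 TPM in Clover and 86.3, 81.1 and 87.9 TPM in Z18trunc. It had the lowest adjusted p of this role group (log2 change -0.21, SE 0.07, 95% interval -0.39 to -0.034, limma adjusted p = 0.127), and its groups did not overlap.

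The ISG15 system attaches the ubiquitin-like protein ISG15 to other proteins. ISG15 itself (chr1:1013497-1014539) was at 158, 174 and 155 TPM in Clover and 160, 152 and 155 TPM in Z18trunc. The groups overlapped, and the 95% interval of the log2 change of -0.060 ran from -0.24 to 0.12 (limma adjusted p = 0.636). UBE2L6, the conjugating enzyme, went from 15.2 ± 1.72 to 16.2 ± 1.04 TPM (SD, n = 3 each), a log2 change of 0.092 that was -0.074 after quantile normalization and -0.072 after median centring. The ligases HERC5 and HERC6 and the deconjugating protease USP18 were below 1 TPM in the mean.

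USP18, which also dampens signalling at IFNAR2, was at 0.875, 0.766 and 0.697 TPM in Clover and 1.13, 1.13 and 1.19 TPM in Z18trunc. HERC6 was at 0.539, 0.454 and 0.906 TPM in Clover and 1.57, 1.11 and 1.06 TPM in Z18trunc. Both were above 1 TPM on average in Z18trunc alone, and in both the groups did not overlap. Read depth over USP18 was low, with a deposited coverage of 1.60 to 2.88 reads per base. Fitted with no filter on abundance, USP18 had a log2 change of 0.27 (limma adjusted p = 0.105) and HERC6 0.46 (limma adjusted p = 0.133), and neither was called.

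**Figure D3:**
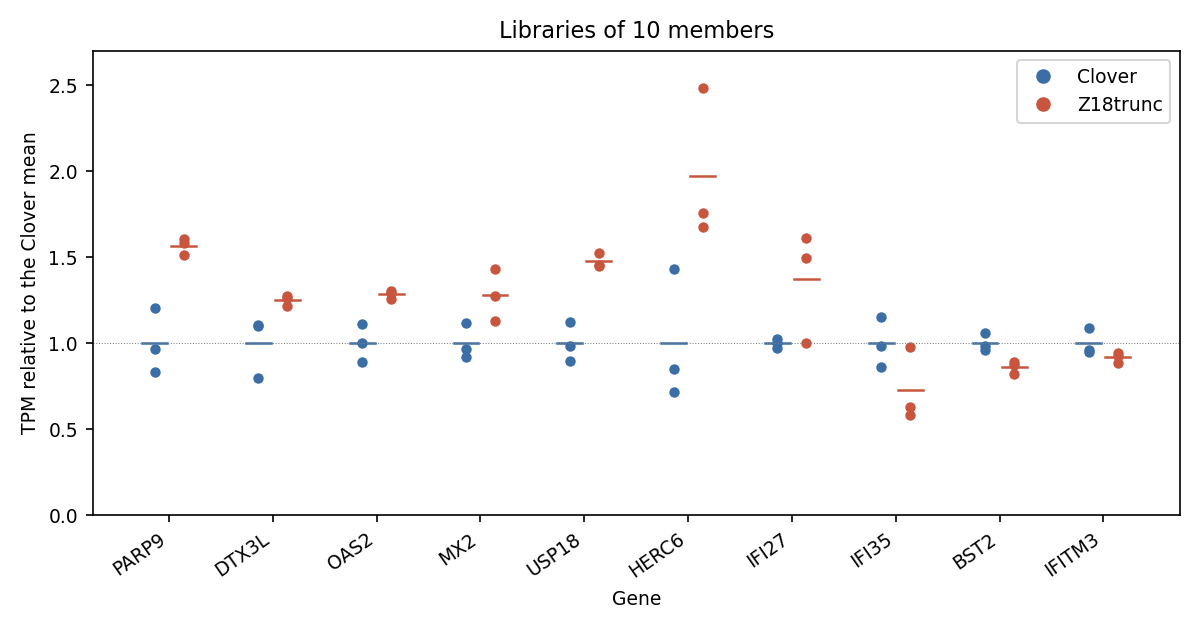
TPM of 10 genes in each library, divided by the gene's Clover mean, on a linear axis from 0, with Clover points in blue, Z18trunc points in red and a short line at each group mean. The genes were chosen after their values were seen: PARP9, DTX3L, OAS2, MX2, USP18 and HERC6 lie higher in Z18trunc without overlap, BST2 and IFITM3 lie lower without overlap, and in IFI27 and IFI35 replicate 3 or replicate 1 of Z18trunc falls among the Clover points.

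The set holds 4 transcription factors of the pathway, and all were detected. IRF1, an early activator that can act without STAT2, was at 37.3, 34.98 and 23.5 TPM in Clover and 35.1, 40.6 and 37.3 TPM in Z18trunc. STAT2, the ISGF3 subunit with the activation domain, was at 25.7, 22.4 and 23.9 TPM in Clover and 25.8, 24.9 and 26.8 TPM in Z18trunc. The low IRF1 value was Clover replicate 3, and the groups overlapped in both genes (log2 changes 0.26 and 0.10, limma adjusted p = 0.373 and 0.424). Without Clover replicate 3 the change of IRF1 was 0.056. IRF9, the DNA-binding subunit of ISGF3, went from 7.20 ± 0.397 to 8.24 ± 1.22 TPM, and IRF7, which amplifies interferon alpha genes, from 16.5 ± 1.33 to 16.9 ± 1.46 TPM (SD, n = 3 each). The log2 changes were 0.16 and 0.029, with overlap. IRF7, IRF9 and STAT2 had negative changes after quantile normalization.

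IFI27 and IFI35 had differences larger than that of OAS2 and smaller than that of PARP9, with 1 Z18trunc library of each among the Clover values. IFI27, a small mitochondrial protein that responds strongly to interferon alpha, was at 43.2, 44.2 and 42.002 TPM in Clover and 64.5, 69.6 and 43.3 TPM in Z18trunc. Z18trunc replicate 3 fell among the Clover values, which left a log2 change of 0.42 (SE 0.17, limma adjusted p = 0.172). Leaving out a library moved it between 0.29 and 0.62. IFI35, a leucine zipper protein, was at 10.5, 12.3 and 9.19 TPM in Clover and 10.4, 6.70 and 6.21 TPM in Z18trunc, with Z18trunc replicate 1 among the Clover values (log2 change -0.43, SE 0.19, limma adjusted p = 0.193). Without that replicate it was -0.64.

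The other detected genes overlapped between the groups. IFI6, an inhibitor of viral replication at the endoplasmic reticulum, was at 40.5, 45.5 and 41.3 TPM in Clover and 40.6, 39.8 and 41.7 TPM in Z18trunc. ISG20, an exonuclease, went from 7.96 ± 1.27 to 6.73 ± 1.58 TPM (SD, n = 3 each), a log2 change of -0.22 that was -0.11 without Clover replicate 2 and -0.38 without Z18trunc replicate 3. IFIT5 went from 1.44 ± 0.139 to 1.32 ± 0.473 TPM (SD, n = 3 each), and EPSTI1 from 1.16 to 1.32 TPM in the mean. Their log2 changes of -0.088 and 0.087 are small beside the distance between their libraries.

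Below 1 TPM the remaining genes gave little signal. IFIT3, a partner of IFIT1 on RNA, went from 0.534 ± 0.173 to 0.910 ± 0.305 TPM (SD, n = 3 each) with overlap. CMPK2, a mitochondrial nucleotide kinase, was at 0.360 and 0.367 TPM, OASL at 0.225 and 0.392 TPM, and IFIT2 at 0.168 and 0.192 TPM in the means of Clover and Z18trunc. SAMD9, IFI16, IFIT1 and HERC5 were under 0.1 TPM in both means. Among these SAMD9 had no overlap between groups, at 0.0566, 0 and 0 TPM in Clover and 0.0819, 0.108 and 0.0641 TPM in Z18trunc. RSAD2 (viperin), SAMD9L, IFI44, IFI44L and XAF1 were listed at 0 in all 6 libraries.

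The change between the groups depended on the base composition and length of transcripts across all genes, and the detected members followed this in part. GC content and length were taken from the canonical GENCODE 44 transcript for 12820 genes, which included all 24. The median log2 change of all genes was 0.30 below 42% GC, 0.22 from 42% to 48%, 0.083 from 48% to 54% and -0.029 above. The 1 detected member of the lowest class, IFIT5 (37.6% GC), had a change of -0.088, where 93.3% of all genes were above 0. DTX3L, EPSTI1, OAS2 and PARP9 are in the second of these classes, where 48.7% of all genes were higher in Z18trunc without overlap. MX2, at 49.3% GC, is in the next, where 24.9% were. The 11 members in the class of highest GC include BST2 (57.3%), IFITM3 (58.1%), IFI27 (58.2%), IFI35 (58.8%) and ISG15 (64.2%), and there 6.28% of all genes were higher and 14.9% lower without overlap. Of these 11, IFI27 at 0.42 and IFI35 at -0.43 lay farthest from the median of that class, in opposite directions. Each had 1 Z18trunc library among the Clover values.

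**Figure D4:**
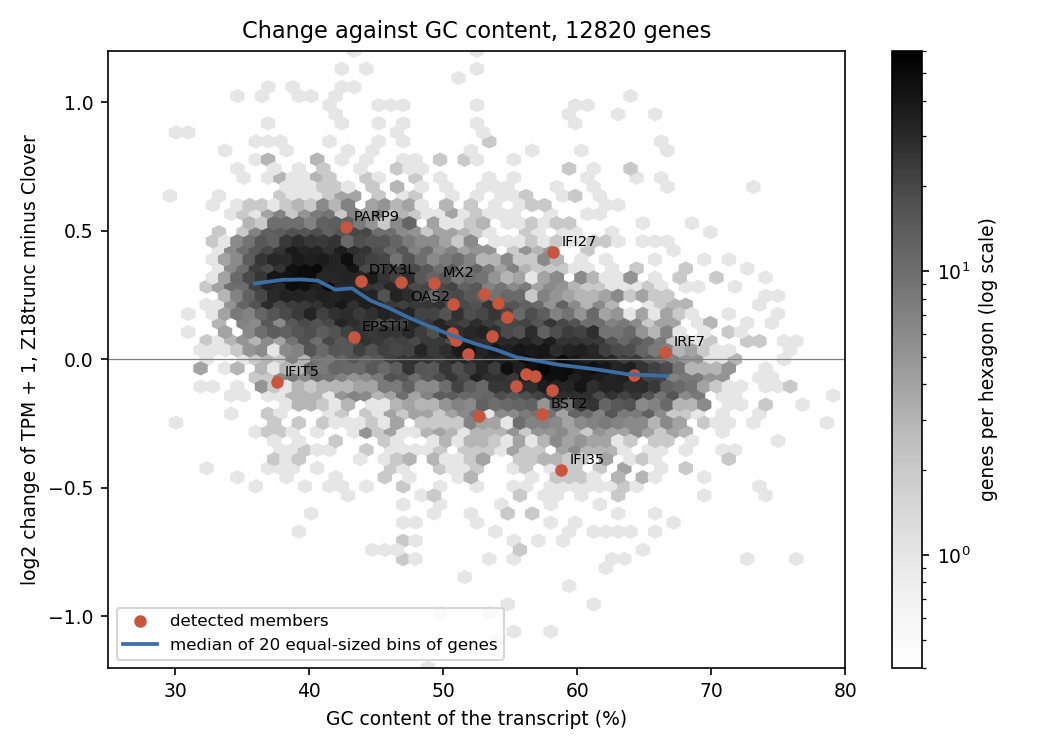
Change of all genes (grey hexagons, darker for more genes on a log scale) and of the 24 detected members (red points) on the log2(TPM + 1) scale, Z18trunc minus Clover, against the GC content of the transcript in percent, with the median of 20 equal-sized bins of genes in blue. The blue line falls from about 0.30 at low GC to below 0 at high GC, with PARP9 above it and IFIT5, EPSTI1 and IFI35 below it, and 25 genes outside the plotted range of 1.2 on either side are not shown.

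The change also varied with transcript length and with abundance, and it rose with length. The median log2 change of all genes was -0.026 under 1000 bases and 0.23 from 4000 bases upward, where 47.7% were higher without overlap. DTX3L (5768 bases) and OAS2 (4622 bases) are in the long class, PARP9 (3045 bases) and MX2 (3408 bases) between 2000 and 4000 bases, and IFITM3 (611 bases) in the short class. All 5 members at or above 80 TPM (IFITM1, IFITM2, IFITM3, ISG15 and BST2) had negative changes with the deposited TPM, while 43.3% of all genes at this abundance had positive ones and their median was -0.020.

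When each library was centred within bins of genes of like GC, a step added after the data were seen, the member differences became smaller in part. PARP9 went from 0.51 to 0.25, OAS2 from 0.30 to 0.13, MX2 from 0.30 to 0.17 and DTX3L from 0.31 to 0.079 on the log2 scale. PARP9 and OAS2 kept groups without overlap, and MX2 and DTX3L did not. BST2 stayed at -0.21 and IFITM3 at -0.10, both lower without overlap, and IFIT5 joined them at -0.40. After this step 12.3% of all genes were higher and 12.5% lower without overlap, against 2 and 3 of the 24 members. The median change of the members was 0.0058.

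Centring in bins of length as well gave 0.25 for PARP9 and 0.077 for OAS2, both still without overlap. BST2 was then at -0.12 with overlap, IFITM3 at 0.00441, and ISG15 at 0.11 and IFI27 at 0.54, both higher without overlap. In all 4 members were then higher and 1 lower without overlap, against 11.2% and 11.5% of all genes. ISG15 and the IFITM genes therefore have no direction that holds in all scalings, other than IFITM1, which was negative in each. Across every scaling, filter and left-out library, 12 of the 24 members kept 1 direction. The 8 higher were PARP9, DTX3L, OAS1, OAS2, OAS3, MX2, IRF1 and IFI27, and the 4 lower were BST2, IFITM1, IFI35 and ISG20. How many of all genes kept 1 direction was not counted, so the 12 have no background beside them. The part of GC content and length in these results was not tested further.

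Clover replicate 2 stood apart from the other control libraries. It held the lowest value of the 6 libraries for 47.8% of all genes tested, and for 5 of the 24 members. For 8 of the 24 it held the highest value, against 11.9% of all genes. Among long transcripts (4000 bases or more) its median deviation from the mean of the libraries was -0.26 on the log2 scale, against -0.02 and -0.05 in the other Clover libraries and 0.08 to 0.14 in Z18trunc. Without it the log2 changes were 0.42 for PARP9, 0.23 for OAS2, 0.28 for MX2 and -0.22 for BST2, and 14 of the 24 were positive with a median of 0.045.

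Upstream of the effectors, most signalling parts read were detected and the interferon genes read were not. Of 10 interferon genes 0 were detected, and 8 were listed at 0 in all 6 libraries. IFNE and IFNL1 had values of up to 0.294 and 0.502 TPM, and other interferon genes were not read. All 6 receptor chains, 6 of 7 kinases and factors outside the set, and all 5 inhibitors of the pathway were detected, and with 26 further interferon-stimulated genes this gave 43 genes tested. None was called, and 32 of the 43 (74.4%) had positive changes against 68% of all genes tested. At an unadjusted p under 0.05 in limma 11 were higher and 1 lower, where the shares of all genes were 25.6% and 2.9%. By ranks 14 were higher and 3 lower without overlap, beside 30.1% and 6.73% of all genes. These counts are close to the background.

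JAK1, the kinase bound to IFNAR2, went from 21.3 ± 2.30 to 29.4 ± 1.89 TPM and IFNAR1 from 13.8 ± 1.94 to 19.1 ± 1.27 TPM (SD, n = 3 each). Both had a log2 change of 0.45 without overlap, and limma adjusted p-values were 0.0773 and 0.0835. IRF2, a repressor that competes with IRF1, had a log2 change of 0.26 without overlap. After centring by GC these 3 kept groups without overlap at smaller changes, 0.26 for JAK1, 0.19 for IFNAR1 and 0.072 for IRF2.

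Among the further interferon-stimulated genes, 3 sensors of double-stranded RNA had higher values in Z18trunc without overlap, and none was called. The log2 changes were 0.38 for EIF2AK2 (PKR), 0.39 for IFIH1 (MDA5) and 0.43 for DDX58 (RIG-I), with limma adjusted p-values of 0.0823, 0.0773 and 0.0935. DDX58 lay at the detection limit, with means of 0.711 TPM in Clover and 1.31 TPM in Z18trunc. It passed the filter only through its Z18trunc values, so its p-value carries little weight. Its groups overlapped after median centring. A further sensor of this family, DHX58 (LGP2), named after its values were seen, was not detected and lay lower without overlap, at 0.360, 0.0922 and 0.0999 TPM in Clover and 0.0849, 0 and 0.0498 TPM in Z18trunc. SAMHD1 (0.39), a nucleotide hydrolase, GBP3 (0.37), a guanylate-binding protein, PARP14 (0.31) and TRIM56 (0.22) were higher in Z18trunc without overlap, and none was called. PSMB8, a subunit of the immunoproteasome, was lower without overlap at -0.17. After centring by GC the groups of EIF2AK2 and IFIH1 overlapped, with changes of 0.071 and 0.13, as did those of GBP3 and PARP14, and DDX58 has no GC value here.

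A stricter filter changed the call for JAK1 and for no effector of the set. With a mean of at least 5 TPM required, limma called 474 of 9973 genes, of which 453 were higher. JAK1 (limma adjusted p = 0.0492) was among them, and 0 of the 19 members left by that filter were.

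Transposable element (TE) fragments inside the detected members gave a second readout. The TE tables list fragments per repeat copy, and copies that lie wholly inside a member's span on its own strand were summed and set per 1000000 aligned fragments (CPM). The sums were 42.2, 39.5 and 41.5 CPM in Clover and 46.1, 42.2 and 44.2 CPM in Z18trunc, from 756 to 1034 fragments per library over 264 copies. Z18trunc replicate 2 was level with Clover replicate 1, the log2 ratio was 0.10, and the two-sided exact permutation p was 0.2, where 3 against 3 libraries cannot go below 0.1. With uniquely mapped counts alone the sums were 31.8, 29.5 and 31.5 CPM in Clover and 34.9, 32.8 and 32.7 CPM in Z18trunc. These did not overlap, at a log2 ratio of 0.11 (exact permutation p = 0.1). Over all genes tested the same sum went from 35110 ± 1115 to 39470 ± 2005 CPM (SD over 3 libraries each). The groups did not overlap, at a ratio of 0.17 on the log2 scale (exact permutation p = 0.1).

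Most of these fragments came from repeats that overlap annotated exons on the same strand and so may count mature transcripts again. Exons of any annotated gene were used, and other genes lie on the same strand over IFI6, IRF9 and STAT2. STAT2 gave 1326 fragments over the 6 libraries, of which 454 lay in a MamRep38 copy that overlaps an exon. OAS3 gave 1039, DTX3L 1009 and IFI6 532, of which 499 lay in a FAM copy that overlaps an exon. BST2, the 3 IFITM genes, ISG15 and IRF7 had none. Outside annotated exons the sum was 2.88 ± 0.772 CPM in Clover and 3.87 ± 0.707 CPM in Z18trunc (SD over 3 libraries each). The groups overlapped, at a ratio of 0.43 on the log2 scale (exact permutation p = 0.2). It rested on 43 to 93 fragments per library. Over all genes tested the ratio outside exons was 0.30 on the log2 scale.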

How the data were processed

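Polyadenylated RNA of 6 SW480 libraries was sequenced as stranded paired-end reads. Groups and replicate numbers come from the sample titles. The authors trimmed reads with cutadapt 4.6 (per the labels) and mapped them to hg38. The deposited gene tables, in the layout of StringTie, hold TPM per gene, which sums to 1000000 per library, and a coverage signal in reads per base. The annotation and version behind them are not given in the sources used here. The deposited TE tables, made by the authors with SQuIRE, hold uniquely mapped counts and estimated counts per repeat copy and strand, not normalized. Gene tables hold no counts, so gene depth and counting intervals could not be given.

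TPM was summed by symbol. Genes with a mean of at least 1 TPM (13300) entered limma 3.58.1 (R 4.3.3) as log2(TPM + 1), with no covariates, Benjamini-Hochberg over all of them and a threshold of 0.05. Fold changes on this scale understate those of low genes. The study names DESeq2, which needs counts. SEs and 95% intervals are those of limma. "Without overlap" means that all 3 values of one group lie beyond all 3 of the other. TE fragments were assigned with bedtools 2.31.1 and compared by the two-sided exact permutation test, whose floor is 0.1, and counting error is not part of it. On simulated data (13300 genes, 200 changed) 44% of changes of 0.5 and 87% of changes of 1 on the log2 scale were recovered. Of the calls there, 7.09% were unchanged genes. The simulated noise was independent between genes, with no trend by GC content or length, so these shares need not hold in these data.

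The members, the other gene lists and the markers were chosen with earlier results of these data known, so no test was run over a list. Members with at least 20 TPM, or without overlap, are given in every library. Genes of other lists are named where the groups did not overlap and the unadjusted p was under 0.05. Of 37 further interferon-stimulated genes 36 were found by symbol. The values of 1 pathway gene that meets this rule are not reported here, though it is in the counts. IFI27, IRF7 and IRF9 have a second entry at 0 TPM, which does not alter their sums. The alternatives were a pseudocount of 0.1, no filter or at least 5 TPM, quantile normalization, median centring, leaving out the 20 most abundant genes, an intensity trend, a replicate block and leaving out each library. Centring in 20 bins by GC, and then by length, was added after the data were seen. Lines were made in triplicate per the study's methods, but p-values measure the spread between these libraries only.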

Additional observations from a re-analysis of the deposited data

How the results depend on the processing

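No alternative called a member. Of the 24 members 8 were higher after quantile normalization and 9 after median centring. Without overlap, 7 of 34 members were higher with no filter, against 4384 of 19182 genes. With at least 5 TPM these were 2 of 19 members and 3120 of 9973 genes. After quantile normalization 2 of the 24 were higher (2232 of 13300 genes), and after GC-bin centring 2 (12.3% of all genes). Lower without overlap were 5 of the 24 after median centring (3362 of 13300 genes) and 1 after GC and length centring (11.5%). The median change was 0.029 with at least 5 TPM, -0.065 after quantile normalization, -0.084 after median centring, 0.0058 after GC-bin centring and 0.035 after GC and length centring. Over all genes, 1 was called with a pseudocount of 0.1, no filter, quantile normalization, the replicate block, or GC and length centring, 60 with an intensity trend and 474 with at least 5 TPM, 2 of them other pathway genes. TE fragments outside exons gave 0.43. Leaving out a library gave 13 to 15 members higher, medians of 0.045 to 0.12, and 1 to 4 genes called. Without overlap 4 to 7 members were then higher and 2 to 5 lower. Of the 13300 genes tested 4317 to 5236 were then higher and 1199 to 1504 lower without overlap.

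Members also changed sign. After quantile normalization these were EPSTI1 (-0.032), IRF7 (-0.14), IRF9 (-0.018), MX1 (-0.16), STAT2 (-0.029), TRIM21 (-0.089) and UBE2L6 (-0.074). After median centring they were EPSTI1 (-0.077), IRF7 (-0.14), MX1 (-0.14), STAT2 (-0.060), TRIM21 (-0.091) and UBE2L6 (-0.072). After GC-bin centring they were EPSTI1 (-0.18), ISG15 (0.00241), MX1 (-0.047) and TRIM21 (-0.021). After GC and length centring they were EPSTI1 (-0.17), IFI6 (0.045), IFITM2 (0.025), IFITM3 (0.00441), ISG15 (0.11), MX1 (-0.049) and STAT2 (-0.040). Leaving out a library did so for EPSTI1 (-0.066 to 0.22), IFIT5 (-0.24 to 0.060), IRF7 (-0.021 to 0.098) and MX1 (-0.052 to 0.094). The cause was not tested. Deviations of libraries with the same replicate number correlated at -0.0355, 0.0172 and -0.0372, which gave no sign of pairing. Whether libraries of the same number shared a batch was not tested. The replicate block called 0 members. With it 6 of the 24 had an unadjusted limma p under 0.05 upward and 1 downward, against 3193 and 302 of 13300 genes. Adjusted p-values over the alternatives ran from 0.0693 to 0.251 for PARP9, 0.0953 to 0.531 for OAS2, 0.132 to 0.926 for DTX3L, 0.0991 to 0.537 for MX2, 0.0790 to 0.453 for BST2 and 0.125 to 0.376 for IFI27. On simulated data with 3 libraries a group, 44% of changes of 0.5, a size close to PARP9's, were recovered. That simulation had 200 changed genes and no trend with GC content or length, so power in these data was not measured.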
